A study of Homo sapiens with 16 samples.

Results

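The insulin-like growth factor system was described through 10 genes, IGF2, H19, IGF1R, IGF2R, INSR, IGFBP2, IGFBP3, IGFBP4, IGFBP5 and IGFBP7, chosen by name out of the 43388 genes of the series. RNA came from cardiomyocytes made from WTC11, an established human induced pluripotent stem cell line, by a Wnt modulation protocol (hPSC-CMs), with 4 libraries in each of 4 groups. Day 16 RPMI/B27 was the starting point, and the other cells spent 2 further weeks, with a change of medium every 3 days, in 1 of 3 media. Day 30 RPMI/B27 stayed in the standard medium, Day 30 RPMI_glcM/B27 had RPMI with 5 mM glucose, and Day 30 HPLM/B27 had human plasma-like medium, whose glucose is matched to that of RPMI_glcM. All 4 groups carried the wild-type genotype and the B27 supplement, which contains insulin, so no group was free of a ligand for the insulin receptor. Each library was 1 well of cells from pooled, frozen progenitors of the same line, so p-values measure the spread between wells and not between lines or differentiations. The labels list 4 wells in each medium, where the design text of the series names 3.

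IGF2 is a fetal growth factor and is transcribed from the paternal allele, while its neighbour H19, a long non-coding RNA, is transcribed from the maternal allele. IGF2 acts through the receptor kinases IGF1R and INSR, and IGF2R, the cation-independent mannose 6-phosphate receptor, takes IGF2 up for degradation without signalling as a kinase. The IGFBP proteins hold the growth factors in the medium and the matrix, and proteases release them.

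The promoters of the receptor kinases INSR and IGF1R are shown because the levels of these genes shifted against each other between groups, as given below. RefSeq promoters were held for 8 of the 10 genes. The 250 bases before the start of INSR lie at chr19:7294415-7294664 on the minus strand and those of IGF1R at chr15:98648289-98648538 on the plus strand of GRCh38.p14. Capitals mark GGGCGG, the GC box, searched on both strands.
INSR: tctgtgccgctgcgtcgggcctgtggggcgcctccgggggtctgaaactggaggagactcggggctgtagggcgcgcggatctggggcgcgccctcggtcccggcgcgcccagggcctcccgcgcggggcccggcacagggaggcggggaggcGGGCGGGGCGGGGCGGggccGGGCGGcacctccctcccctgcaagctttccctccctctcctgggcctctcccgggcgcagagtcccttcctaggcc
IGF1R: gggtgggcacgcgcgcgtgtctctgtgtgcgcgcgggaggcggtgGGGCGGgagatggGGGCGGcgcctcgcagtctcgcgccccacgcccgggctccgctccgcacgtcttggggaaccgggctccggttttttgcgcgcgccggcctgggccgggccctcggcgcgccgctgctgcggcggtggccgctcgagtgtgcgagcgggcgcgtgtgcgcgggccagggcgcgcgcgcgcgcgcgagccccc
INSR held 4 matches to the GC box, of which neighbours share bases, and IGF1R held 2, and 42.6% of 35116 RefSeq promoters of this length held at least 1. Neither window held GTAAACA, a core FOXO site found in 2.98% of promoters, or CACGTG, an E-box found in 6.34%. G and C made up 78.4% of the INSR window and 81.2% of the IGF1R window, against a median of 58.0% over all promoters.

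The values were TPM (transcripts per 1000000, a length-corrected share), which the authors made from counts, and between 7744768 and 16183655 reads per library fell on genes once whole reads were recovered from the TPM. A gene of 1 kilobase gained between 0.139 and 0.314 TPM with each read. Mitochondrial RNR2 alone held 41.0% to 48.3% of the TPM and RN7SK 8.76% to 13.8%. RNR1 ranged from 49.5 to 29276 TPM, and 2 libraries of Day 30 RPMI/B27, replicates 3 and 4, exceeded 10000 TPM. The 9 cardiomyocyte markers, all at a mean of at least 1 TPM, summed to between 13770 and 18277 TPM in every library. Because the median gene was lower at Day 30 than at Day 16 by 0.28 (RPMI/B27), 0.22 (RPMI_glcM/B27) and 0.29 (HPLM/B27) on the log2 scale, changes with time are also given after median-of-ratios rescaling, which divides each library by a factor that levels the median gene.

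Among the ligands, IGF2 was the only 1 of 4 that reached a mean of 1 TPM over all libraries. IGF2 lies at chr11:2129117-2149566 on the minus strand. Its level was 4.74, 5.15, 3.01 and 3.71 TPM in replicates 1 to 4 of Day 16, and 6.54, 5.54, 4.70 and 4.56 TPM in Day 30 RPMI/B27. It was 5.91, 4.96, 5.34 and 5.83 TPM in Day 30 RPMI_glcM/B27 and 6.68, 7.16, 6.10 and 7.35 TPM in Day 30 HPLM/B27. Every HPLM/B27 library lay above every Day 16 library and above every RPMI_glcM/B27 library, while RPMI/B27 overlapped with all other groups. These levels rested on 75 to 231 reads per library, and the mean level stood at percentile 41.8 of the 16122 genes tested. In order of their means the groups were Day 16 at 4.15 ± 0.971 TPM (SD, n = 4), RPMI/B27 at 5.33 ± 0.911, RPMI_glcM/B27 at 5.51 ± 0.444 and HPLM/B27 at 6.82 ± 0.556.

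IGF2 rose from Day 16 to Day 30 in HPLM/B27 by a log2 fold change of 0.62 (SE 0.15, adjusted p = 0.00725, limma on log2(TPM + 1)), in 4 of 4 libraries. After rescaling this was 0.90 (adjusted p = 8.58e-05). In RPMI/B27 the log2 fold change was 0.31 (adjusted p = 0.151) and in RPMI_glcM/B27 it was 0.35 (adjusted p = 0.105). Both passed the threshold after rescaling, at 0.58 (adjusted p = 0.00446) and 0.56 (adjusted p = 0.0033). Between media at Day 30 no difference of IGF2 passed the threshold: HPLM/B27 against RPMI_glcM/B27 gave 0.26 (SE 0.15, adjusted p = 0.846), although the libraries did not overlap, and HPLM/B27 against RPMI/B27 gave 0.31 (adjusted p = 0.336).

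The other ligands were at or near 0. INS, which encodes insulin, and the read-through gene INS-IGF2 were listed at 0 in every library. IGF1, the postnatal growth factor of the family, had 7 to 11 reads per library at Day 16, 9 to 26 in Day 30 RPMI/B27, 0 to 2 in RPMI_glcM/B27 and 5 to 13 in HPLM/B27, and was too low to be tested. In GENCODE v44, 1460 of the 1826 exonic bases of INS-IGF2 are also bases of IGF2. A counter that leaves out reads shared by 2 genes would drop reads on those bases, and the setting the authors used is not given in the sources used here. The level of IGF2 is therefore uncertain, while libraries counted in the same way can be compared.

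MIR483, a microRNA gene of 76 bases inside IGF2 at chr11:2134134-2134209, had 8 reads in all. They fell in HPLM/B27 replicates 1, 2 and 3, with 3, 3 and 2 reads, and the other 13 libraries had 0, where a count of 0 allows up to 3 reads. At this depth the host gene and the microRNA gene could not be compared.

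H19 lies at chr11:1995176-2001266 on the minus strand. It had 34 reads in all 16 libraries together, and 11 of them had any. Reads per library were 0, 0, 2 and 0 at Day 16, 6, 2, 4 and 2 in Day 30 RPMI/B27, 0, 0, 5 and 2 in RPMI_glcM/B27, and 1, 4, 3 and 3 in HPLM/B27. The highest level was 0.629 TPM. A count of 0 allows up to 3 reads, which is 0.161 to 0.363 TPM of H19 depending on the library, so most libraries lay near this floor and no change of H19 was detectable at this depth. MIR675, the microRNA gene inside H19, was listed at 0 throughout.

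**Figure D1:**
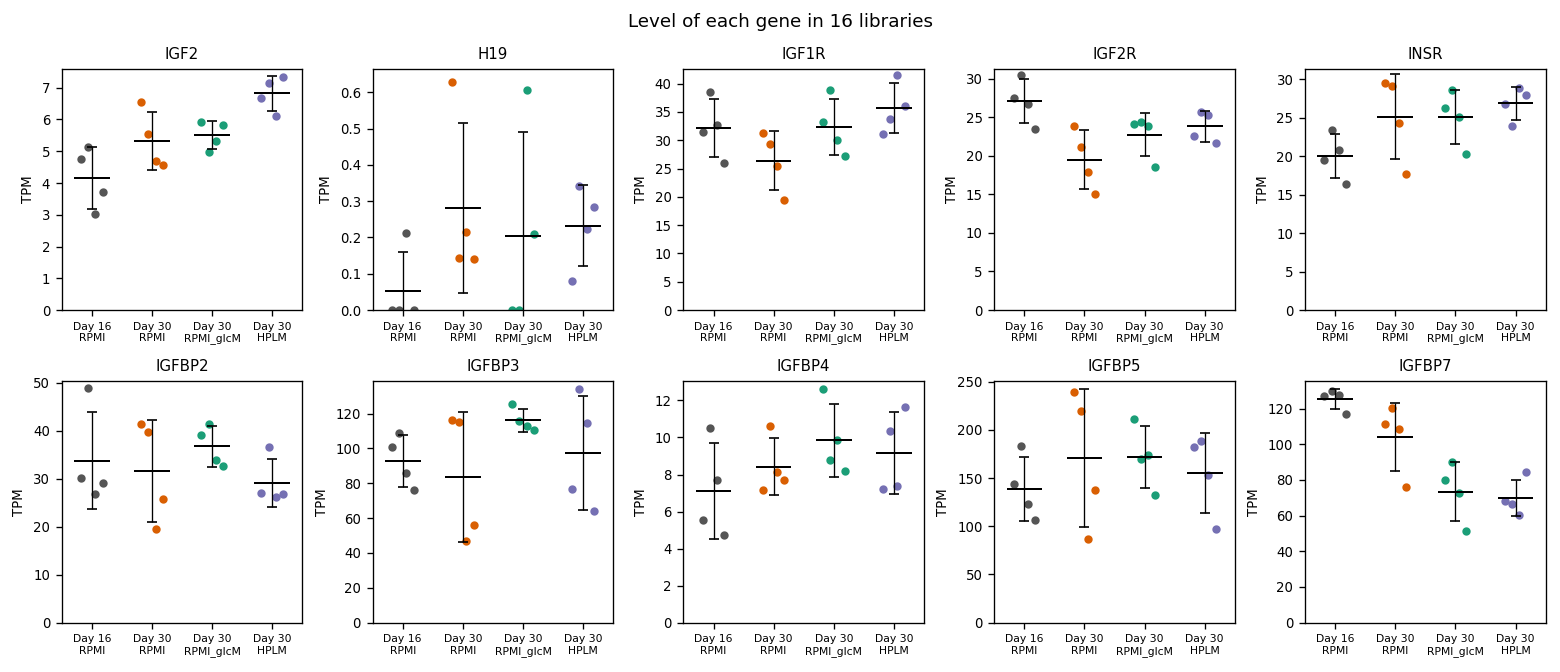
TPM of the 10 genes (vertical axes, linear, from 0) in the 16 libraries by group, with points for libraries, horizontal bars for means and vertical bars for 1 SD (cut off at 0). IGF2 in HPLM/B27 sits between 6.10 and 7.35 TPM above all Day 16 points, and IGFBP7 sits between 51.4 and 89.8 TPM in both 5 mM glucose media below all Day 16 points.

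The receptors were transcribed at similar levels per length. IGF1R (chr15:98648539-98964530, plus strand) was at 31.5, 38.5, 32.7 and 25.9 TPM in the Day 16 libraries. It was 31.4, 29.3, 25.5 and 19.4 TPM in Day 30 RPMI/B27, 33.2, 38.8, 30.0 and 27.3 TPM in RPMI_glcM/B27, and 31.2, 33.8, 41.5 and 36.0 TPM in HPLM/B27. All groups overlapped, and no comparison of IGF1R passed the threshold on TPM. After rescaling it was higher in HPLM/B27 than at Day 16 by 0.48 (adjusted p = 0.00216) and than in Day 30 RPMI/B27 by 0.44 (adjusted p = 0.0092).

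INSR (chr19:7112265-7294414, minus strand) was at 19.5, 23.4, 20.8 and 16.4 TPM at Day 16. It was 29.5, 29.1, 24.3 and 17.7 TPM in Day 30 RPMI/B27, 26.3, 28.6, 25.1 and 20.4 TPM in RPMI_glcM/B27, and 26.8, 23.9, 28.9 and 27.9 TPM in HPLM/B27. Only HPLM/B27 lay wholly above Day 16. The log2 fold changes against Day 16 were 0.30 (adjusted p = 0.186), 0.31 (adjusted p = 0.182) and 0.41 (SE 0.16, adjusted p = 0.0653) for the media in this order, and none passed the threshold. After rescaling all 3 did, at 0.62 (adjusted p = 0.000315), 0.56 (adjusted p = 0.000405) and 0.74 (adjusted p = 3.81e-05).

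A ratio of 2 genes within a library does not depend on how libraries are scaled to each other. The ratio of INSR to IGF1R, which was chosen after its values were seen and is given without a test, was 0.621, 0.608, 0.635 and 0.633 in the Day 16 libraries. It was 0.941, 0.993, 0.953 and 0.909 in Day 30 RPMI/B27. In RPMI_glcM/B27 it was 0.794, 0.736, 0.837 and 0.746, and in HPLM/B27 0.862, 0.707, 0.696 and 0.775. Day 16 lay below every Day 30 library, Day 30 RPMI/B27 lay above all others, and the 5 mM glucose media overlapped with each other between these extremes. The 2 libraries with the most RNR1 were at 0.953 and 0.909.

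IGF2R (chr6:159969082-160111504, plus strand) was at 27.5, 30.5, 26.8 and 23.5 TPM at Day 16 and at 23.8, 21.1, 17.9 and 15.1 TPM in Day 30 RPMI/B27. It was 24.2, 24.4, 23.9 and 18.5 TPM in RPMI_glcM/B27 and 22.6, 25.7, 25.3 and 21.6 TPM in HPLM/B27. Its fall in RPMI/B27, by a log2 fold change of -0.47 (SE 0.14, adjusted p = 0.0294), passed the threshold on TPM, with 1 pair of libraries overlapping between the groups. After rescaling the value was -0.15 (adjusted p = 0.159), and IGF2R was then higher in HPLM/B27 than in RPMI/B27 at Day 30 by 0.30 (adjusted p = 0.00985). The call on TPM was lost without Day 16 replicate 1 (adjusted p = 0.0727), 2 (0.0848) or 3 (0.0657) or RPMI/B27 replicate 3 (0.0727) or 4 (0.0914), and without both of the latter the value was -0.26 (adjusted p = 0.263). AIRN, the antisense RNA that overlaps IGF2R, ranged from 0.250 to 0.975 TPM over the 16 libraries. The ratio of IGF2 to IGF2R, also chosen after its values were seen, was 0.113 to 0.172 at Day 16. It was 0.262 to 0.303 in RPMI/B27, 0.203 to 0.315 in RPMI_glcM/B27 and 0.241 to 0.339 in HPLM/B27, so all Day 30 libraries lay above all Day 16 libraries and the media overlapped.

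**Figure D2:**
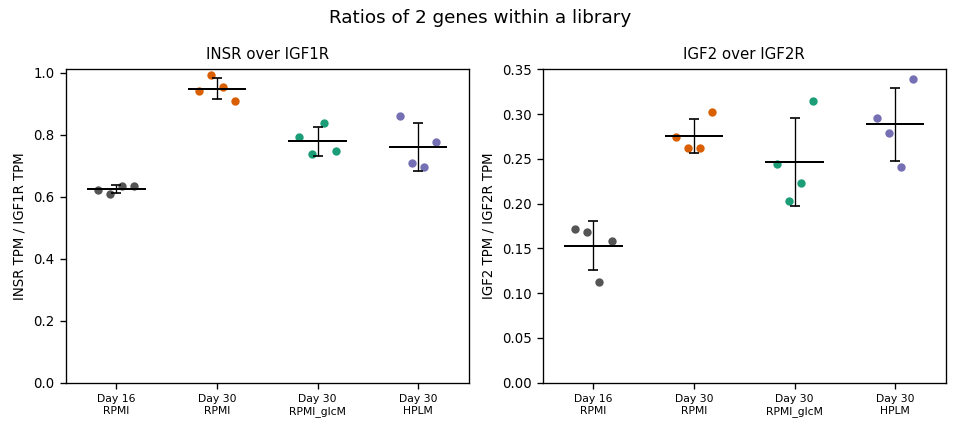
Ratio of INSR to IGF1R TPM (left) and of IGF2 to IGF2R TPM (right) in each library by group, with points for libraries, horizontal bars for means and vertical bars for 1 SD. INSR over IGF1R runs from 0.608 to 0.635 at Day 16 and from 0.909 to 0.993 in Day 30 RPMI/B27, with both 5 mM glucose media between them.

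Of the binding proteins, IGFBP5, IGFBP3 and IGFBP7 were the most abundant of the 10 genes, at percentiles 98.0, 96.1 and 95.9 of the genes tested. IGFBP7 (chr4:57030773-57110385, minus strand), a secreted protein that binds insulin-like growth factors weakly and is found in matrix and vessels, was at 127, 130.0, 128 and 117 TPM at Day 16. It was 111, 120.3, 109 and 76.1 TPM in Day 30 RPMI/B27, 80.0, 89.8, 72.8 and 51.4 TPM in RPMI_glcM/B27, and 68.5, 66.3, 60.3 and 84.5 TPM in HPLM/B27. Every library of the 5 mM glucose media lay below every Day 16 library, and RPMI/B27 overlapped with both sides. IGFBP7 fell from Day 16 by a log2 fold change of -0.79 in RPMI_glcM/B27 (SE 0.17, adjusted p = 0.00329) and of -0.85 in HPLM/B27 (SE 0.17, adjusted p = 0.00202). After rescaling these were -0.53 (adjusted p = 0.01) and -0.51 (adjusted p = 0.0134). In RPMI/B27 it was -0.29 (adjusted p = 0.224), and 0.05 after rescaling.

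Against Day 30 RPMI/B27, IGFBP7 was at -0.50 in RPMI_glcM/B27 (SE 0.17, adjusted p = 0.145) and at -0.56 in HPLM/B27 (SE 0.17, adjusted p = 0.0996). Neither passed on TPM, and after rescaling both did, at -0.58 (adjusted p = 0.0141) and -0.56 (adjusted p = 0.0158). Between the 5 mM glucose media the log2 fold change was -0.05 (SE 0.17, adjusted p = 0.982).

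Summed markers of other cell types were also lower in the 5 mM glucose media than at Day 16, but not all followed IGFBP7 in RPMI/B27. The 12 fibroblast-like markers, of which 8 had a mean of at least 1 TPM, summed to 248 to 451 TPM at Day 16, 154 to 305 in Day 30 RPMI/B27, 121 to 166 in RPMI_glcM/B27 and 125 to 189 in HPLM/B27. The 15 hepatic endoderm-like markers, of which 11 had a mean of at least 1 TPM and 2 a mean below 0.1 TPM, summed to 477 to 847, 330 to 582, 95.2 to 219 and 72.6 to 213 TPM in the same order. Over all genes 17.8%, 17.8% and 22.4% were called lower than at Day 16 on TPM, and 8.91%, 14.2% and 12.5% after rescaling. Of the 8 fibroblast-like markers tested, 4 (RPMI/B27), 6 (RPMI_glcM/B27) and 5 (HPLM/B27) were called lower. After rescaling 3, 6 and 5 were lower. In RPMI/B27 and in RPMI_glcM/B27 1 was then higher, beside 8.62% and 13.4% of all genes. In RPMI/B27, where IGFBP7 did not pass the threshold, 8 of the 11 hepatic endoderm-like markers tested were already called lower than at Day 16 (7 after rescaling), as were 10 of 11 in each 5 mM glucose medium. ALB, which encodes albumin and belongs to that list, went the other way, from a mean of 21.2 TPM at Day 16 to 242 TPM in RPMI/B27, 78.1 TPM in RPMI_glcM/B27 and 49.9 TPM in HPLM/B27, and was called higher in all 3. The 10 endothelial-like markers, of which only KDR had a mean of at least 1 TPM, summed to 43.5 to 55.7 TPM at Day 16, 14.7 to 33.7 in RPMI/B27, 16.9 to 26.4 in RPMI_glcM/B27 and 19.9 to 32.2 in HPLM/B27, so they were as low in RPMI/B27 as in the other media. The 7 smooth muscle-like markers, of which 6 were tested, summed to 376 to 836 TPM at Day 16 and 241 to 1007 in RPMI/B27. Their sum was 268 to 352 TPM in RPMI_glcM/B27 and 285 to 506 TPM in HPLM/B27. In HPLM/B27 the highest library was replicate 4 for this sum and for IGFBP7, but in every other group the highest libraries of the sum and IGFBP7 differed. Of the 6 tested, 3 were called lower than at Day 16 in each 5 mM glucose medium. After rescaling 1 and 0 were, beside 14.2% and 12.5% of all genes. ALB and KDR were named after their values were seen. The part of these cells in the fall of IGFBP7 was not tested, and fewer cells of a type cannot be told apart from less RNA per cell in bulk samples.

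**Figure D3:**
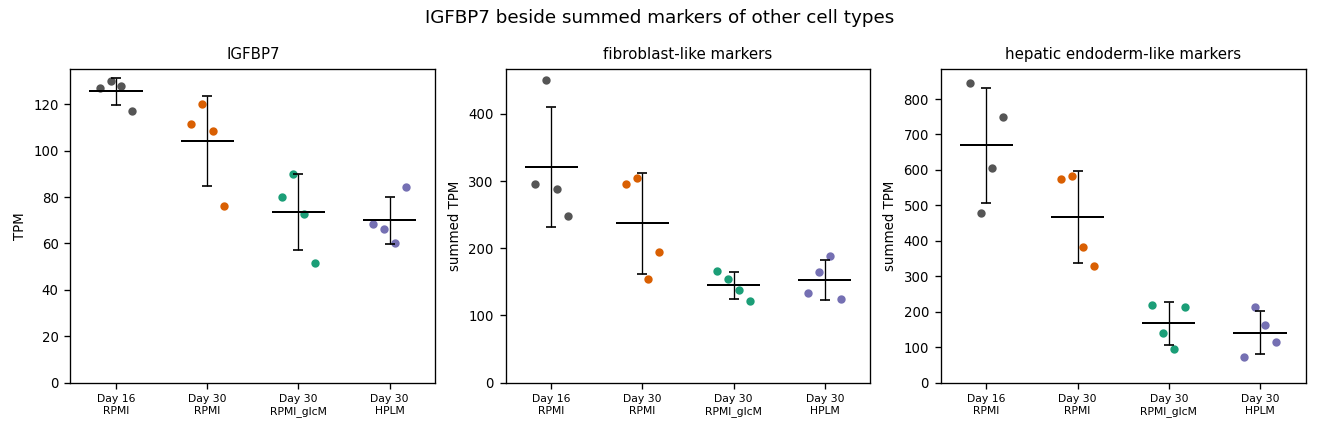
IGFBP7 TPM (left) and the summed TPM of 12 fibroblast-like (middle) and 15 hepatic endoderm-like markers (right) in each library by group, with points for libraries, horizontal bars for means and vertical bars for 1 SD. All 3 are lower in both 5 mM glucose media than at Day 16, with Day 30 RPMI/B27 between or overlapping.

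IGFBP3 (chr7:45912245-45921272, minus strand), the main carrier of growth factors in serum, was at 100.7, 109, 85.8 and 75.9 TPM at Day 16 and at 116, 115, 46.8 and 56.0 TPM in Day 30 RPMI/B27. It was 125, 116, 113 and 110.3 TPM in RPMI_glcM/B27, wholly above Day 16, and 76.8, 134, 115 and 64.1 TPM in HPLM/B27. IGFBP5 (chr2:216672105-216695549, minus strand), which binds matrix as well as growth factors, was at 144, 183, 123 and 106 TPM at Day 16 and at 239.6, 219.9, 86.8 and 137 TPM in RPMI/B27. It was 211, 170.2, 174 and 132 TPM in RPMI_glcM/B27 and 182, 188, 153 and 96.9 TPM in HPLM/B27. Both genes split the RPMI/B27 group, where the low replicates 3 and 4 were those with 14387 and 29276 TPM of RNR1 against 1545 and 619 TPM in replicates 1 and 2. In HPLM/B27, IGFBP3 was likewise low in replicates 1 and 4, with 6359 and 5889 TPM of RNR1, and high in replicates 2 and 3, with 138 and 203 TPM. IGFBP5 did not split in this way in HPLM/B27. It was lowest in replicate 4, at 96.9 TPM, but higher in replicate 1, at 182 TPM, than in replicate 3, at 153 TPM. In RPMI_glcM/B27 RNR1 was at 225, 355, 4872 and 6806 TPM in replicates 1 to 4. IGFBP3 fell in that order, though only from 125 to 110.3 TPM. At Day 16 RNR1 was at 127, 49.5, 121 and 3793 TPM. IGFBP3 was there highest in replicate 2 and lowest in replicate 4. With RNR1 as a covariate IGFBP3 in RPMI/B27 against Day 16 moved from -0.25 to 0.29 (adjusted p = 0.46). No comparison of IGFBP3 or IGFBP5 passed the threshold on TPM. After rescaling IGFBP3 in RPMI_glcM/B27 against Day 16 did, at 0.59 (adjusted p = 0.0262).

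IGFBP2 (chr2:216632828-216664436, plus strand), a binding protein of fetal tissues, ranged from 19.5 to 48.8 TPM and IGFBP4 (chr17:40443450-40457725, plus strand), an inhibitor of growth factor action that PAPPA cleaves, from 4.73 to 12.6 TPM. Their groups overlapped in all 6 comparisons, and none passed the threshold on TPM. After rescaling IGFBP2 was higher than at Day 16 in RPMI_glcM/B27, at 0.41 (adjusted p = 0.0448), and IGFBP4 in RPMI_glcM/B27, at 0.68 (adjusted p = 0.0169), and in HPLM/B27, at 0.65 (adjusted p = 0.0241). The 5 binding proteins together summed to 333 to 481 TPM at Day 16, 269.9 to 516 in RPMI/B27, 335 to 468 in RPMI_glcM/B27 and 284 to 436 in HPLM/B27. Within this sum IGFBP7 took 27.01% to 35.1% at Day 16, 21.6% to 40.2% in RPMI/B27, 15.4% to 21.1% in RPMI_glcM/B27 and 15.2% to 29.8% in HPLM/B27. IGFBP5 took 31.9% to 38.0%, 32.2% to 46.5%, 39.6% to 45.1% and 34.1% to 50.4%, and IGFBP3 22.6% to 24.7%, 17.4% to 22.8%, 26.8% to 32.9% and 21.2% to 31.7% in the same order. For all 3 shares RPMI_glcM/B27 did not overlap with Day 16, and the other media did. IGFBP6, which prefers IGF2 and is no member of the 10, rested on 5 to 24 reads per library and fell in RPMI_glcM/B27 against Day 16 by a log2 fold change of -0.95 (adjusted p = 0.00634).

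Counted over the 9 genes tested, 1 passed the threshold in Day 30 RPMI/B27 against Day 16 (IGF2R, lower), where 19.9% of all 16122 genes did. In RPMI_glcM/B27 it was 1 (IGFBP7, lower), where 21.1% of all genes did, and in HPLM/B27 it was 2 (IGF2 higher, IGFBP7 lower), where 25.4% did. On TPM these shares of 9 lie below the background. Over all genes higher calls were rarer than lower ones, at 2.08% against 17.8% in RPMI/B27, 3.34% against 17.8% in RPMI_glcM/B27 and 3.00% against 22.4% in HPLM/B27, whereas after rescaling they were 8.62% against 8.91%, 13.4% against 14.2% and 12.9% against 12.5%. The members' median log2 fold changes against Day 16 were -0.11, 0.31 and 0.14 for the media in this order, beside -0.28, -0.22 and -0.29 over all genes. After rescaling 2, 6 and 5 members passed, where 17.5%, 27.5% and 25.3% of all genes passed. These rescaled shares of 9 lie above the background, so the place of the members against it depended on the scaling.

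Groups without overlap numbered 0, 2 and 3 of the 9 against Day 16, beside 17.9%, 30.2% and 35.9% of all genes (1.72%, 4.24% and 3.77% higher, 16.2%, 25.9% and 32.1% lower). Between media they numbered 0, 0 and 1 (IGF2, higher in HPLM/B27 than in RPMI_glcM/B27), beside 7.00%, 7.30% and 7.28%. Between media at Day 30, limma called 0 of the 9 in each of the 3 comparisons, and 2.20% of all genes in RPMI_glcM/B27 against RPMI/B27, 2.41% in HPLM/B27 against RPMI/B27 and 0.0682% in HPLM/B27 against RPMI_glcM/B27. After rescaling 1, 3 and 0 members passed in these comparisons, beside 12.1%, 12.9% and 1.63% of all genes. Limma-voom on recovered reads called 2, 3 and 0 members. Over 15423 genes it called 1077 higher and 916 lower, 1333 and 1151, and 154 and 114.

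**Figure D4:**
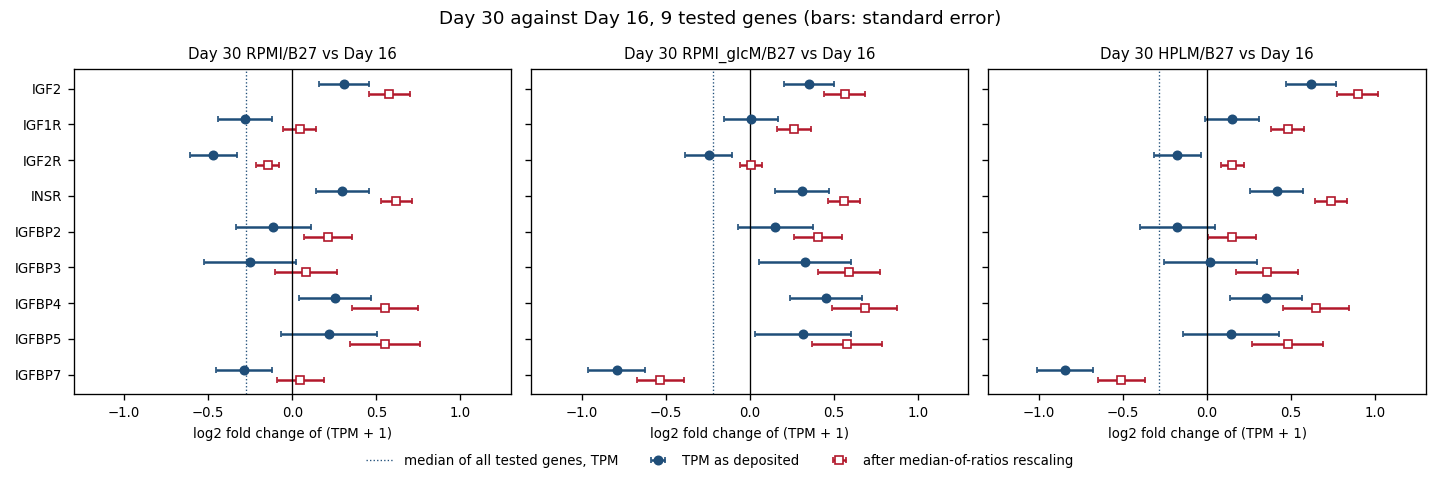
Log2 fold change of (TPM + 1) of the 9 tested genes for each Day 30 group against Day 16, on TPM as deposited (filled circles) and after median-of-ratios rescaling (open squares), with bars for the standard error and a dotted line at the median of all tested genes. IGF2 lies to the right of 0 in all 3 panels, and IGFBP7 lies near -0.8 on TPM in both 5 mM glucose media.

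The 6 genes listed as regulators of IGF2 mRNA, 3 of the IGF2BP family and 3 of the let-7 pathway, were all lower at Day 30 than at Day 16. IGF2BP1, IGF2BP2 and IGF2BP3 are RNA-binding proteins that bind IGF2 and other fetal transcripts. LIN28A and LIN28B block maturation of let-7 microRNAs, and HMGA2 is a chromatin protein that let-7 represses. All 6 fell in each medium against Day 16 on TPM, without overlap, and 5, 6 and 6 did after rescaling, where IGF2BP2 in RPMI/B27 gave -0.16 (adjusted p = 0.107). Over all genes 17.8%, 17.8% and 22.4% were called lower on TPM, 8.91%, 14.2% and 12.5% after rescaling, and 16.2%, 25.9% and 32.1% were lower without overlap. HMGA2 was at 54.1, 61.6, 57.1 and 50.5 TPM at Day 16 and at 14.8, 15.0, 14.0 and 13.7 TPM in HPLM/B27, a log2 fold change of -1.88 (SE 0.17, adjusted p = 2.31e-06). In RPMI/B27 it was at 29.9, 28.8, 17.4 and 15.9 TPM. IGF2BP1 went from 72.8, 68.7, 76.5 and 64.0 TPM at Day 16 to 32.1, 36.0, 33.0 and 29.8 TPM in HPLM/B27. The median log2 fold change of the list was -1.09 (RPMI/B27), -1.02 (RPMI_glcM/B27) and -1.19 (HPLM/B27), beside -0.28, -0.22 and -0.29 over all genes. No comparison of these genes between media at Day 30 passed the threshold on TPM. After rescaling 1 of the 6 was lower than in RPMI/B27 in each 5 mM glucose medium, where 12.1% and 12.9% of all genes passed in either direction. HMGA2 in HPLM/B27 lay below RPMI/B27 without overlap, as 7.30% of all genes did not overlap in this comparison. IGF2 itself moved in the other direction from these 6 genes in HPLM/B27.

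Of 7 proteases of binding proteins and their inhibitors, 6 were tested. Against Day 16, 2 fell in RPMI/B27, and 3 fell and 1 rose in each of RPMI_glcM/B27 and HPLM/B27. After rescaling 2 fell in RPMI/B27, 1 fell and 1 rose in RPMI_glcM/B27, and 2 fell and 1 rose in HPLM/B27. Over all genes 19.9%, 21.1% and 25.4% were called in either direction on TPM, and 17.5%, 27.5% and 25.3% after rescaling. PAPPA, which cleaves IGFBP4, was at 2.76 to 2.90 TPM at Day 16 and fell to 0.744 to 1.09 TPM in RPMI_glcM/B27, by -1.05 on the log2 scale (adjusted p = 0.00119). ADAMTS1, a protease of the matrix, fell in HPLM/B27 by a log2 fold change of -1.37 (adjusted p = 2.79e-05). STC2, a secreted inhibitor of PAPPA, was at 8.36, 8.26, 6.95 and 4.90 TPM in Day 30 RPMI/B27, at 13.7, 17.6, 18.0 and 14.4 TPM in RPMI_glcM/B27 and at 11.6, 9.99, 18.8 and 12.8 TPM in HPLM/B27. It was higher than in RPMI/B27 by 1.07 (SE 0.20, adjusted p = 0.00895) and 0.80 (SE 0.20, adjusted p = 0.0416). The second call was lost without RPMI/B27 replicate 3 (adjusted p = 0.0686) or 4 (0.0783) or HPLM/B27 replicate 1 (0.0667), 3 (0.149) or 4 (0.0927).

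Below the receptors, 30 of 32 signal transduction genes were tested. On TPM 1 rose and 14 fell in RPMI/B27 against Day 16, 1 rose and 9 fell in RPMI_glcM/B27, and 0 rose and 10 fell in HPLM/B27. After rescaling the counts were 2 and 7, 3 and 7, and 4 and 6, so the split depended on the scaling. Over all genes the shares higher and lower were 2.08% and 17.8%, 3.34% and 17.8%, and 3.00% and 22.4% on TPM, and 8.62% and 8.91%, 13.4% and 14.2%, and 12.9% and 12.5% after rescaling. IRS1, an adaptor of both receptor kinases, was at 31.8, 33.1, 31.7 and 26.3 TPM at Day 16 and at 15.1, 14.9, 10.6 and 8.58 TPM in RPMI/B27. It fell in all 3 media, by log2 fold changes of -1.28 (RPMI/B27), -0.98 (RPMI_glcM/B27) and -0.87 (HPLM/B27), with adjusted p = 8.79e-05, 0.000393 and 0.000951. PIK3R1, the regulatory subunit of PI3-kinase, rose in RPMI/B27 by 0.86 (adjusted p = 0.00103) and in RPMI_glcM/B27 by 0.59 (adjusted p = 0.00838). In HPLM/B27 PIK3R1 was at 28.9, 24.8, 27.3 and 27.4 TPM. These values lay above every Day 16 library (16.2 to 24.6 TPM) but did not pass the threshold on TPM. SHC1, an adaptor to the MAP kinase branch, fell without overlap by -1.02 in RPMI_glcM/B27 (adjusted p = 0.000991) and by -0.90 in HPLM/B27 (adjusted p = 0.00252). It was at 32.5, 32.8, 32.9 and 23.9 TPM at Day 16 and overlapped with RPMI/B27, at 25.2, 25.0, 16.6 and 14.0 TPM. The low RPMI/B27 libraries were replicates 3 and 4, with the most RNR1.

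IRS2, the adaptor whose gene FOXO factors induce when insulin signalling is low, was at 4.49, 5.42, 3.80 and 3.03 TPM at Day 16 and at 2.54, 2.24, 2.01 and 2.00 TPM in Day 30 RPMI/B27. It was 5.29, 6.96, 3.78 and 3.72 TPM in RPMI_glcM/B27 and 4.16, 5.75, 7.59 and 5.77 TPM in HPLM/B27. Every library of the 5 mM glucose media lay above every RPMI/B27 library of Day 30. The log2 fold changes were 0.86 (SE 0.20, adjusted p = 0.0321) and 1.07 (SE 0.20, adjusted p = 0.00784), and 0.81 and 1.09 after rescaling. Without RPMI/B27 replicates 3 and 4, which hold the most RNR1, they were 0.78 (adjusted p = 0.0601) and 0.99 (adjusted p = 0.0159). The call in RPMI_glcM/B27 was also lost without RPMI/B27 replicate 3 (adjusted p = 0.0731) or 4 (0.0598) or RPMI_glcM/B27 replicate 1 (0.0919) or 2 (0.121).

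Of 14 FOXO-regulated transcripts, 12 were tested, with 1 higher and 2 lower than Day 16 in RPMI/B27, 1 and 1 in RPMI_glcM/B27, and 2 and 1 in HPLM/B27. After rescaling 4 were higher and 1 lower in each medium. The counts on TPM, 3, 2 and 3 of 12, lie near the 19.9%, 21.1% and 25.4% of all genes called, and the rescaled ones stand beside 17.5%, 27.5% and 25.3%. The ubiquitin ligases TRIM63 and FBXO32 act in breakdown of muscle protein. TRIM63 was at 79.3 to 96.1 TPM at Day 16, 136 to 161 in RPMI/B27, 175 to 186 in RPMI_glcM/B27 and 164 to 185 in HPLM/B27. It rose by 0.79, 1.06 and 0.99 (log2) in the 3 media. FBXO32 was at 25.4, 28.8, 9.45 and 13.3 TPM in Day 30 RPMI/B27 and at 43.6, 63.8, 50.6 and 39.5 TPM in HPLM/B27, higher by 1.42 (SE 0.28, adjusted p = 0.0124), and without HPLM/B27 replicate 2 by 1.29 (adjusted p = 0.0505). Without RPMI/B27 replicates 3 and 4, the low libraries of their group, it was 0.82 (adjusted p = 0.0247). SESN3, a stress-induced inhibitor of mTORC1, fell in all 3 media, by -0.88, -1.44 and -1.17 in the same order, the first of which was -0.46 (adjusted p = 0.177) without RPMI/B27 replicates 3 and 4. These members did not move in 1 direction.

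Of 24 imprinted genes, IGF2 and H19 among them, 16 were tested. None rose and 5 fell in RPMI/B27 against Day 16, none rose and 5 fell in RPMI_glcM/B27, and 1 rose, which was IGF2, and 6 fell in HPLM/B27. After rescaling 4 rose and 3 fell, 3 rose and 4 fell, and 2 rose and 4 fell. Over all genes 17.8%, 17.8% and 22.4% were called lower and 2.08%, 3.34% and 3.00% higher on TPM, and after rescaling 8.91%, 14.2% and 12.5% lower and 8.62%, 13.4% and 12.9% higher. MEST, expressed from the paternal allele, fell from 12.3 to 20.2 TPM at Day 16 to 2.98 to 9.08 TPM in RPMI/B27, 2.81 to 5.58 in RPMI_glcM/B27 and 3.08 to 7.06 in HPLM/B27. The low RPMI/B27 libraries were replicates 3 and 4, with the most RNR1, and without them the log2 fold change of -1.42 was -0.85 (adjusted p = 0.0602). DLK1, a paternally expressed NOTCH ligand homologue, was at 7.50, 6.62, 2.85 and 3.36 TPM in Day 30 RPMI/B27, at 1.98, 1.64, 0.403 and 2.27 TPM in RPMI_glcM/B27, and all HPLM/B27 libraries also lay below all RPMI/B27 libraries. Against RPMI/B27 it fell by -1.23 (log2, adjusted p = 0.0348) in RPMI_glcM/B27 and by -1.24 (adjusted p = 0.0325) in HPLM/B27. The first was lost without RPMI/B27 replicate 1 (adjusted p = 0.0766) or 2 (0.0742) or RPMI_glcM/B27 replicate 1 (0.059), 2 (0.0817) or 3 (0.103), and the second without RPMI/B27 replicate 1 (0.0764) or 2 (0.0791) or HPLM/B27 replicate 1 (0.0859), 3 (0.101) or 4 (0.0909). GRB10, an imprinted inhibitor of INSR and IGF1R, fell in RPMI/B27 against Day 16 by a log2 fold change of -0.66 (adjusted p = 0.00971). It was -0.41 after rescaling (adjusted p = 0.00829), and the call was lost with RNR1 as a covariate (-0.45, adjusted p = 0.075), without RPMI/B27 replicates 3 and 4 (-0.48, adjusted p = 0.0892) and with only the groups compared in the fit (adjusted p = 0.0952).

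**Figure D5:**
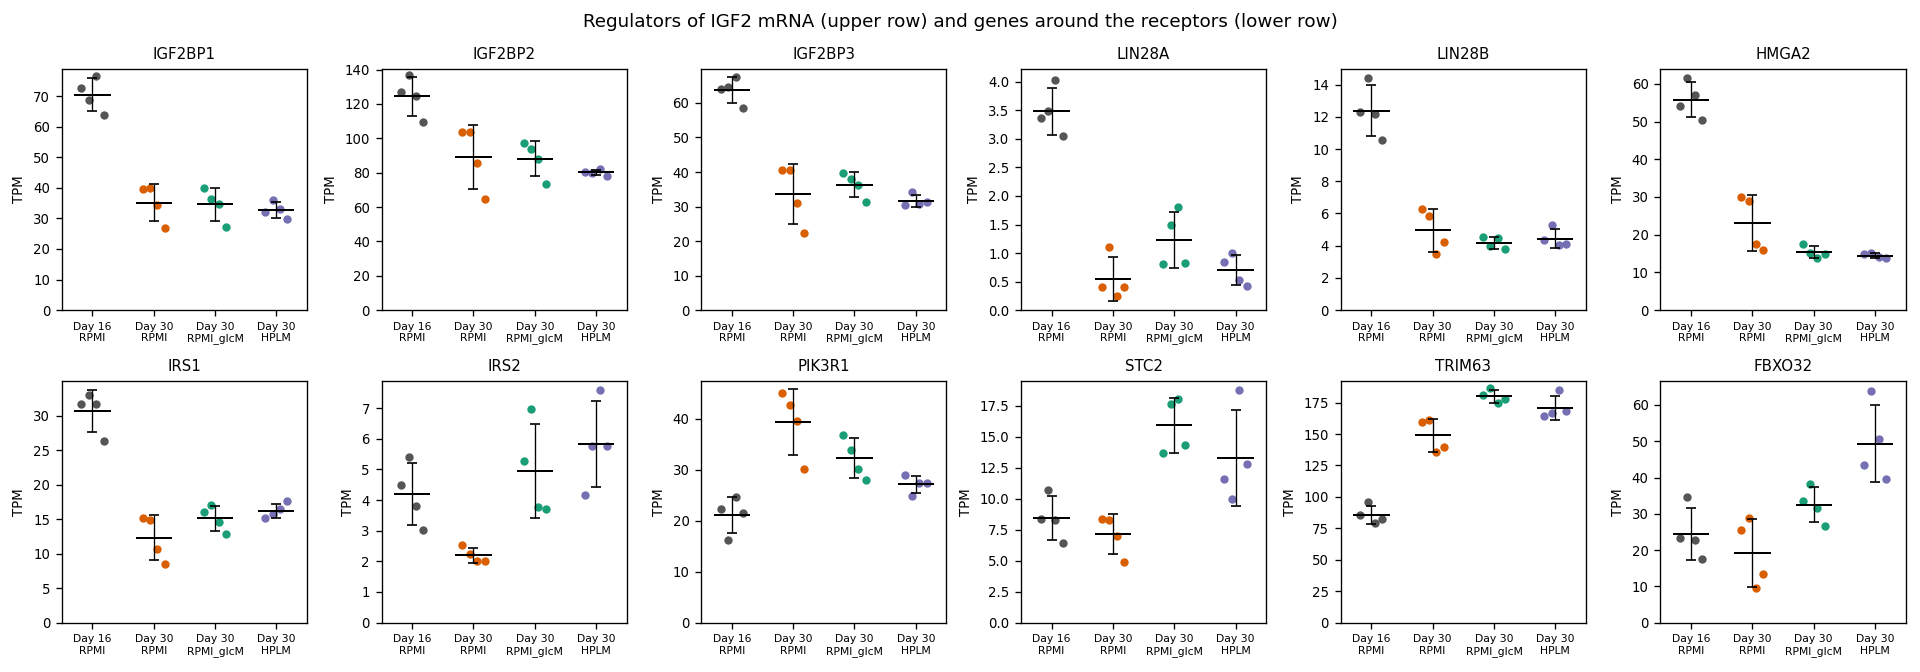
TPM (vertical axes, linear, from 0) of the 6 genes listed as regulators of IGF2 mRNA (upper row) and of IRS1, IRS2, PIK3R1, STC2, TRIM63 and FBXO32 (lower row) in each library by group, with points for libraries, horizontal bars for means and vertical bars for 1 SD. The upper row is highest at Day 16 in every panel, and IRS2 runs from 2.00 to 2.54 TPM in Day 30 RPMI/B27 below every library of the 5 mM glucose media.

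The genes whose pattern over the 16 libraries was most like that of IGF2, by the root mean square difference of centred log2(TPM + 1) among 6833 genes at a mean of at least 10 TPM, were TPD52 (0.165), MYH7 (0.168), which encodes the slow beta myosin heavy chain, and LGALS3BP (0.173). A gene with no change at all would have stood at 0.273, and 275 genes were closer than that. For H19 they were SRP19 (0.152), ATP6V1G1 (0.173) and MED4 (0.188), a description of at most 6 reads per library.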

How the data were processed

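RNA of 16 libraries, 4 in each of 4 groups given by the labels, was prepared with a stranded total RNA kit. The authors aligned reads with STAR 2.5.3a, counted them with featureCounts 2.0.3 and worked in R 4.1.3, according to their processing notes. They deposited TPM for 43388 genes. The annotation, gene lengths and strand setting are not given in the sources used here. TPM of a total RNA library depend on the share taken by mitochondrial RNA and RN7SK.

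Whole reads were recovered for 31047 of 31047 genes above 0, assuming TPM made from whole reads, and only used for an added count test and for depth. The 16122 genes averaging 1 TPM or more were fitted on log2(TPM + 1), which understates changes of low genes, with limma 3.58.1 in R 4.3.3 (all 16 libraries and 4 groups in one fit, empirical Bayes with a trend), for 6 comparisons. P-values were adjusted by Benjamini-Hochberg, at a threshold of 0.05. Simulated data held 200 genes changed by 1.5 on the log2 scale in Day 30 RPMI/B27 against Day 16. Limma recovered 191 of them with 8 false calls. Among the insulin-like growth factor genes tested, the largest change on TPM was -0.85, for IGFBP7 in HPLM/B27 against Day 16. The simulation held no changes of that size or smaller, so it cannot tell how often limma would miss them. Loci and promoters came from RefSeq (GRCh38.p14) and exons from GENCODE v44.

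The 10 genes and the pathway lists were chosen with earlier results of these data known. From each list at most 2 genes per direction and comparison were named, those with the largest change among called genes without overlap, a short list was named whole, and a gene named once may be followed in other comparisons. Alternatives were another pseudocount, no filter, rescalings, a replicate block, RNR1 as a covariate, limma-voom, fits of 2 groups and leaving out libraries. The rescaling without mitochondrial, ribosomal and RN7SK RNA left out mitochondrial ribosomal and transfer RNA, nuclear ribosomal RNA genes and RN7SK. No mitochondrial messenger RNA was among the genes left out, and the nuclear genes TRNP1 and TRNT1 were taken out with them by name. Fits without the 2 libraries above 10000 TPM of RNR1 were added after seeing the data. Python 3.11.15, numpy 2.4.6, pandas 2.3.3 and matplotlib 3.10.9 were used.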

Additional observations from a re-analysis of the deposited data

Results flagged for a closer look

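In 5 of 40 groups of 4 libraries (10 genes in 4 groups) the highest or lowest library stood far from the other 3. The measure was the gap to the nearest library over the range of the group. A rate of about 1 in 20 groups by chance does not hold for H19, which had 0 to 6 reads with ties at 0. No excess over chance can therefore be read from this count. H19 was at 0.211 TPM in Day 16 replicate 3 against 0 in the others, and at 0.629 TPM in Day 30 RPMI/B27 replicate 1 against 0.214 TPM in the nearest, which are 2 and 6 reads. IGF2R was at 18.5 TPM in RPMI_glcM/B27 replicate 4, where the nearest library had 23.9 TPM. IGFBP2 was at 48.8 TPM in Day 16 replicate 2 against 30.2 TPM in the nearest, and at 36.6 TPM in HPLM/B27 replicate 2 against 26.9 TPM.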

How the results depend on the processing

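IGF2 and IGFBP7 in HPLM/B27 and IGFBP7 in RPMI_glcM/B27, each against Day 16, passed the threshold under all 9 alternatives and all 8 leave-outs of 1 library, with log2 fold changes of IGF2 from 0.62 to 1.07 over the alternatives. The numbers of the 9 genes that passed, 1, 1, 2, 0, 0 and 0 for RPMI/B27 against Day 16, RPMI_glcM/B27 against Day 16 and HPLM/B27 against Day 16, then RPMI_glcM/B27 and HPLM/B27 against RPMI/B27 and last HPLM/B27 against RPMI_glcM/B27, depended on the scaling. In that order they were 2, 6, 5, 1, 3 and 0 with median-of-ratios rescaling, 3, 4, 4, 1, 3 and 0 with rescaling without mitochondrial, ribosomal and RN7SK RNA, 4, 8, 5, 2, 3 and 0 with limma-voom, 1, 3, 3, 0, 1 and 0 with RNR1 as a covariate, 0, 1, 3, 0, 0 and 0 with only the groups compared, and 1, 1, 3, 1, 1 and 0 without the 2 libraries above 10000 TPM of RNR1. Leaving out 1 library gave 0 to 1, 1 to 2, 2 to 2, 0 to 1, 0 to 1 and 0 to 0. Calls over all genes moved too, given here for the 3 media against Day 16. With limma-voom 1581 were higher and 1773 lower, 2222 and 2347, and 2274 and 2278 of 15423. Rescaling without mitochondrial, ribosomal and RN7SK RNA gave 753 and 2109, 1209 and 2822, and 1192 and 2580 of 19208. RNR1 as a covariate gave 497 and 888, 920 and 2312, and 766 and 3071 of 16122. With only the groups compared it was 159 and 839, 680 and 3786, and 636 and 5198. Without the 2 libraries above 10000 TPM of RNR1 it was 698 and 860, 825 and 4673, and 738 and 5843. The causes were not tested.

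Whether replicate numbers pair the libraries was not settled. Of 24 same-numbered pairs, 6 correlated above 0.1 (r from -0.066 to 0.21), beside r from -0.31 to 0.16 for different numbers. Of 16 libraries, 7 correlated best with their own number. A replicate block raised the calls over all genes in every comparison. In RPMI/B27 against Day 16 they went from 336 higher and 2867 lower to 442 and 4292. With the replicate block 1, 1, 3, 0, 0 and 0 of the 9 genes passed.

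Changes of sign concerned values that did not pass the threshold on TPM as deposited. With median-of-ratios rescaling the sign changed in RPMI/B27 against Day 16 for IGF1R (0.043), IGFBP2 (0.21), IGFBP3 (0.081) and IGFBP7 (0.047), in RPMI_glcM/B27 against Day 16 for IGF2R (0.0083), in HPLM/B27 against Day 16 for IGF2R (0.15) and IGFBP2 (0.15), in RPMI_glcM/B27 against RPMI/B27 for IGF2 (-0.013) and INSR (-0.057), in HPLM/B27 against RPMI_glcM/B27 for IGFBP7 (0.021). With limma-voom the sign changed in RPMI/B27 against Day 16 for IGF1R (0.046), IGFBP2 (0.19), IGFBP3 (0.080) and IGFBP7 (0.056), in RPMI_glcM/B27 against Day 16 for IGF2R (0.014), in HPLM/B27 against Day 16 for IGF2R (0.16) and IGFBP2 (0.15), in RPMI_glcM/B27 against RPMI/B27 for INSR (-0.057), in HPLM/B27 against RPMI_glcM/B27 for IGFBP7 (0.0056). With rescaling without mitochondrial, ribosomal and RN7SK RNA the sign changed in RPMI/B27 against Day 16 for IGFBP2 (0.078), in HPLM/B27 against Day 16 for IGF2R (0.035) and IGFBP2 (0.035), in RPMI_glcM/B27 against RPMI/B27 for INSR (-0.029), in HPLM/B27 against RPMI_glcM/B27 for IGFBP7 (0.011). With RNR1 as a covariate the sign changed in RPMI/B27 against Day 16 for IGFBP2 (0.23) and IGFBP3 (0.29), in RPMI_glcM/B27 against RPMI/B27 for INSR (-0.082) and IGFBP5 (-0.10), in HPLM/B27 against RPMI/B27 for IGFBP3 (-0.000609) and IGFBP4 (-0.019). Without the 2 libraries of most RNR1 the sign changed in RPMI/B27 against Day 16 for IGFBP2 (0.30) and IGFBP3 (0.33), in RPMI_glcM/B27 against RPMI/B27 for IGF2 (-0.11), INSR (-0.23), IGFBP2 (-0.15) and IGFBP5 (-0.43), in HPLM/B27 against RPMI/B27 for INSR (-0.12) and IGFBP3 (-0.31). Leave-outs of 1 library in RPMI/B27 against Day 16 gave IGFBP2 -0.26 to 0.088. Leave-outs of 1 library in RPMI_glcM/B27 against Day 16 gave IGF1R -0.087 to 0.10. Leave-outs of 1 library in HPLM/B27 against Day 16 gave IGFBP2 -0.29 to 0.0087 and IGFBP3 -0.15 to 0.20. Leave-outs of 1 library in RPMI_glcM/B27 against RPMI/B27 gave IGF2 -0.011 to 0.14, INSR -0.14 to 0.11 and IGFBP5 -0.19 to 0.30. Leave-outs of 1 library in HPLM/B27 against RPMI/B27 gave INSR -0.036 to 0.20, IGFBP2 -0.27 to 0.085, IGFBP4 -0.018 to 0.20 and IGFBP5 -0.36 to 0.13. Leave-outs of 1 library in HPLM/B27 against RPMI_glcM/B27 gave IGF2R -0.024 to 0.11, IGFBP4 -0.22 to 0.0093, IGFBP5 -0.29 to 0.035 and IGFBP7 -0.21 to 0.051.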
